A study of Mus musculus with 2 samples.

Results

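Lymphocyte transcripts were compared in mammary epithelial cell preparations from mice lacking Cuzd1 and from their heterozygous littermates. The genes are 34 named members: 11 of the B cell lineage, 13 of T cells, 7 of natural killer (NK) and cytotoxic cells, and 3 found across leukocytes. They were matched by gene symbol to the probe sets of a 3′ expression array, taking only probe sets that the platform annotation gives a single symbol. Of the 34, 31 had a probe set, with 52 probe sets in all, out of 18193 genes with a probe set and 45101 probe sets on the array. Cd38, Lck and Trbc1 had no probe set listed and were not analysed here.

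The Cuzd1-null mice carry a knockout made by homologous recombination in embryonic stem cells, and the controls are heterozygous for the same allele, not wild type. Both groups were backcrossed to C57BL/6 and taken on day 18 of pregnancy, counting the vaginal plug as day 1. Inguinal glands were digested with hyaluronidase and collagenase, and the washed cell pellet was frozen. No sort or gate is recorded, so cells other than epithelium can remain in the pellet. The labels call the cells purified epithelium. RNA from 5 mice per genotype went into 1 pool, hybridized to 1 array. There is therefore no replicate, no test and no p-value, and every difference is one between these 2 pools.

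B lymphocytes recognise antigen through a surface immunoglobulin whose signal passes through the Cd79a and Cd79b chains to the adaptor Blnk. T lymphocytes use a receptor that signals through the Cd3 chains, the kinases Lck and Zap70 and the adaptor Lat. NK cells and cytotoxic T cells kill with perforin and granzymes. In the pregnant and lactating gland, B lineage cells are best known as the source of the antibodies that pass into milk.

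Values are MAS5 signals, a linear intensity for each probe set. Dim MAS5 signals are largely background, so each array has a floor at the median of its non-control probe sets, 34.2 units for the heterozygous array and 32.5 units for the null array. A gene is represented by the probe set whose signal averaged highest over both arrays. Its log2 ratio is null over heterozygous after values below the floor are raised to it, so a positive ratio is a higher signal in the null pool. A gene with 1 array above its floor has a ratio that is a bound, and a gene with neither has no ratio. Most of these transcripts were dim, and no member read above 359 units on either array. In contrast, 9 of 9 luminal and alveolar epithelial markers were above both floors, with Krt18 at 8581 and 10003 units and the casein Csn2 at 14669 and 13592 units in heterozygous and null cells. Cuzd1 read 32.36 and 33.98 units, next to the floor on both arrays, so it does not check the genotype labels.

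Of the 31 members with a probe set, 25 read higher in the null pool when the signals were compared as deposited, with no floor. Among all 18193 genes, 51.7% read higher. The median log2 ratio of the 31 was 0.56 and that of all genes 0.02, but most of the 31 were too dim on at least 1 array for their size to be measured. Above both floors were 13 members, of which 10 were higher in the null pool, against 54.7% of the 10610 genes above both floors. Their median log2 ratio was 0.44, against 0.03 for those genes. At least 1.5-fold higher were 5 of the 13, against 5.16% of such genes, and none was 1.5-fold lower, against 4.40%. The shares of all genes given here were not matched for signal. The 13 had median signals of 97.8 units in heterozygous and 113 units in null cells. The 10610 genes had medians of 216 and 227 units, and ratios spread more widely among dim genes. At least 2-fold higher was 1 member, Ebf1, of the 22 with at least 1 array above its floor, where 1.12% of 11893 such genes were called. None was 2-fold lower, where 1.03% were called. A further 8 members passed the floor in the null pool alone, so that their direction is largely set by the filter, and 1, Klrd1, in the heterozygous pool alone.

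The smallest ratios took their direction from how the arrays were scaled. Hybridization controls, spiked in and read by 18 probe sets, had a median log2 ratio of -0.22, and rescaling to them moved the median of all measured genes from 0.03 to 0.25. On that scale Cd8a, Cd2, Prf1 and Ikzf1 turned from lower to higher in the null pool, and Klrd1 was the 1 measured member still lower. Rescaling shifts every gene the same way, and the share of all genes higher on that scale was not counted.

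**Figure D1:**
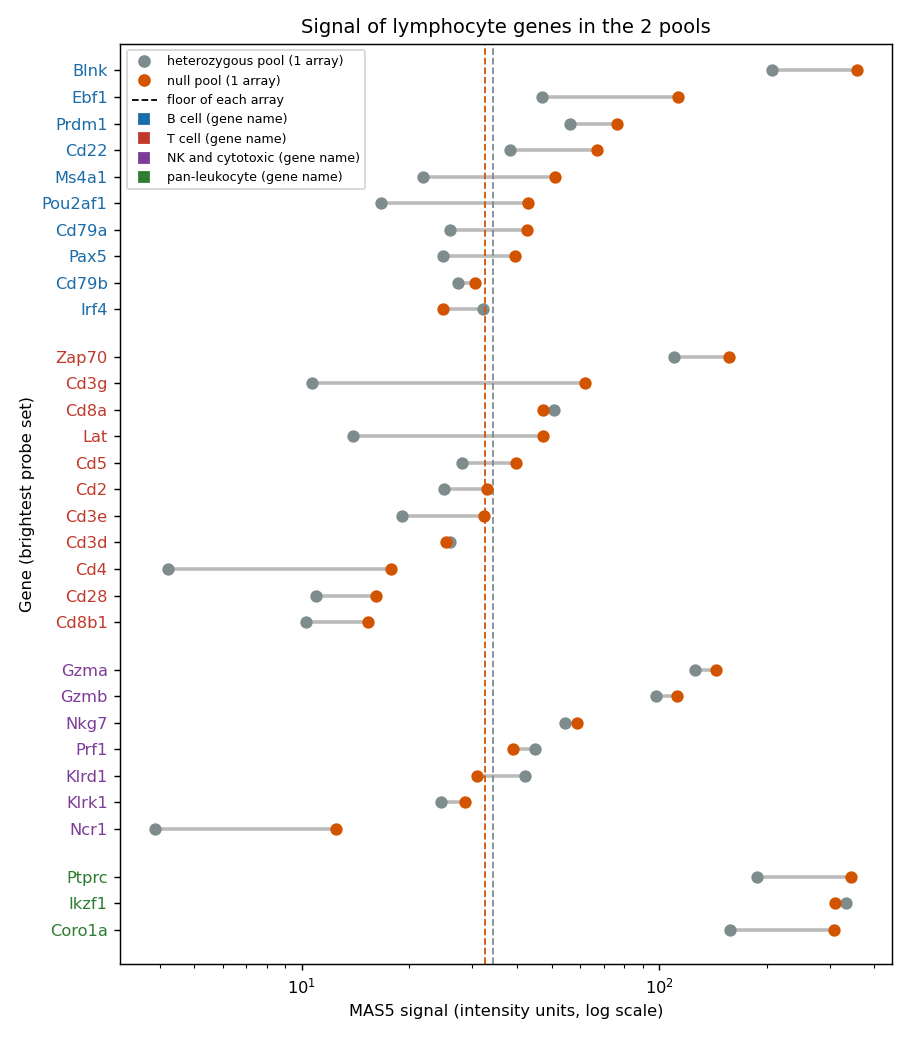
MAS5 signal (intensity units, log scale) of the brightest probe set of each of the 31 genes on the heterozygous array (grey) and the null array (orange), 1 array each and so without error bars. Dashed lines mark each array's floor, and the colour of a gene name marks its group. Most B cell genes lie further right in the null pool, while the paired points of the cytotoxic genes Gzma, Gzmb, Nkg7 and Prf1 lie close together.

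Promoter sequence is shown for 4 members, chosen with their values known: Cd22 and Blnk, the B cell members whose window holds an EBF core or an octamer, and the granzyme genes Gzma and Gzmb, which hold a RUNX core. Windows of 250 bases before the RefSeq transcription start (build GRCm38.p6) were available for 26 members. Each is printed 5′ to 3′ on the gene's own strand. Capitals mark the match to the EBF core CCCNNGGG in Cd22, to the octamer motif ATGCAAAT in Blnk (here on the opposite strand, as ATTTGCAT), and to the RUNX core TGTGGT in both granzyme genes (in Gzma on the opposite strand, as ACCACA).
Cd22, chr7:30879029-30879278, minus strand: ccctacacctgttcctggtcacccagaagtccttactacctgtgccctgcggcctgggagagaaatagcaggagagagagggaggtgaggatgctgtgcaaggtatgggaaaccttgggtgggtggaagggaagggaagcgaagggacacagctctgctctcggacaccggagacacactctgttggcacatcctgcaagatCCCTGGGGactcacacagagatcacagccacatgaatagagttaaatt
Blnk, chr19:40994222-40994471, minus strand: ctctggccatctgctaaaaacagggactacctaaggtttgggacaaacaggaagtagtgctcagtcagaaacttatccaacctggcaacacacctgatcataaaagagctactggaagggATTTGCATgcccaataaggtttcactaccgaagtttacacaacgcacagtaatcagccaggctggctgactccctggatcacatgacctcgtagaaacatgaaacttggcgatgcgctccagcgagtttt
Gzma, chr13:113100982-113101231, minus strand: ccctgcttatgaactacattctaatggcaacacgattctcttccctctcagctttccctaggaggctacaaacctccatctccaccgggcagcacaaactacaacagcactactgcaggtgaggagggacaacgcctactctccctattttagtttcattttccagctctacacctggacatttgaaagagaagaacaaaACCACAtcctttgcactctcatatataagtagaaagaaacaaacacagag
Gzmb, chr14:56262335-56262584, minus strand: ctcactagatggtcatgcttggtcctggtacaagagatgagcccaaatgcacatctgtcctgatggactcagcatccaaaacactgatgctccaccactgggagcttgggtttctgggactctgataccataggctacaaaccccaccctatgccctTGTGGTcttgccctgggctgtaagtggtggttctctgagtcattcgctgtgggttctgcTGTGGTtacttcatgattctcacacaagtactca

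The EBF match in Cd22 begins at position -48 from the start and the octamer in Blnk at -130. The RUNX matches begin at -50 in Gzma and at -93 and -34 in Gzmb. EBF1 is the B lineage factor encoded by the member Ebf1. The octamer is bound by OCT1 and OCT2, with which the member Pou2af1 acts as a coactivator, and RUNX factors act in T and NK cells. On either strand, CCCNNGGG, which reads the same on both, stood in 11.8% of 32851 promoter windows and in 1 of the 9 B cell members with a window. It was also in 1 of 8 T cell members (Zap70), 1 of 6 NK and cytotoxic members (Prf1) and 2 of 3 leukocyte-wide members (Coro1a and Ikzf1). ATGCAAAT stood in 1.60% of windows, in 1 of the 9 B cell members and in no other member. TGTGGT stood in 14.0% of windows and in 6 of 6 NK and cytotoxic members with a window: Gzma, Gzmb, Prf1, Nkg7, Klrk1 and Ncr1. It was in 1 of 9 B cell members (Ebf1), 2 of 8 T cell members (Lck and Zap70) and 0 of 3 leukocyte-wide members. The longer TGTGGTT, which contains it, was in 4.40% of windows and in 4 of those 6. The PU.1 motif GAGGAAGT, in 2.44% of windows, was in none of the 9 B cell members and in 1 T cell member, Cd5. The percentages count windows while the members are counted as genes, so they are not the same measure. These matches describe letters in the window and not bound sites.

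In the B cell group, 9 of the 10 members with a probe set read higher in null cells without a floor, as did all 4 that were above both floors. Blnk, the adaptor below the B cell receptor, read 207 units in heterozygous and 359 units in null cells. This is 1.73-fold higher, a log2 ratio of 0.79. The robust SD of the ratios of genes of similar signal, a spread between genes and not a replicate error, was 0.28 around a median of 0.04. Cd22, an inhibitory coreceptor of B cells, read 38.3 and 67.0 units, 1.75-fold higher. At its signal genes were more widely spread, with a robust SD of 0.52.

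The antigen receptor chains and surface markers were close to the floor. Cd79a, a signalling chain of the receptor, read 25.9 units in heterozygous and 42.7 units in null cells, at least 1.25-fold higher. Its partner Cd79b read 27.3 and 30.5 units and was below the floor on both arrays. Ms4a1, which encodes the B cell marker CD20, read 21.9 and 51.1 units, at least 1.49-fold higher. Its second probe set, below both floors, read 5.70 and 11.5 units. Both arrays were thus dim for the receptor chains, and only the null array was over its floor for Cd79a and Ms4a1.

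Among transcription factors of early B cells, Ebf1, which establishes B cell identity and is also expressed by stromal and fat cell precursors, had the largest floored ratio of the members. Its brightest probe set read 46.9 and 113 units, 2.41-fold higher, and the robust SD among genes of similar signal was 0.42. The 3 other measured Ebf1 probe sets read 63.3 and 90.6 units, 54.3 and 98.1 units, and 28.7 and 53.5 units. All 4 were higher in the null pool, with log2 ratios of 0.52 to 1.27, and averaged over them the ratio was below 2-fold. Pax5, which keeps cells in the B lineage, read 24.9 and 39.6 units. Pou2af1, the octamer coactivator, read 16.7 and 43.1 units. Both were above the floor in the null pool alone, at least 1.16-fold and 1.26-fold higher.

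Prdm1, which drives plasma cell differentiation and is also known in other lineages, read 56.5 and 76.5 units, a log2 ratio of 0.44 that equalled the robust SD of 0.44 at its signal. Irf4, another plasma cell factor, was below the floor on both arrays at both of its probe sets. The brighter read 32.1 and 24.8 units, which made Irf4 the one B cell member lower in the null pool without a floor. The other probe set was higher, at 1.83 and 2.92 units, and neither gives a ratio.

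T cell genes were mostly at or under the floor, and only Zap70 and Cd8a were above it on both arrays. Zap70, the kinase recruited to the activated receptor, read 110 units in heterozygous and 157 units in null cells, 1.42-fold higher, with a robust SD of 0.30 among genes of similar signal. Its other probe sets were below both floors, at 5.88 and 23.6 units and at 12.9 and 11.0 units and give no ratio. Cd8a, a coreceptor of cytotoxic T cells, read 50.9 and 47.5 units, a log2 ratio of -0.10 that turned above 0 on rescaling. The name of that probe set ends in x_at, which marks probes that can bind other transcripts. Of its 4 further probe sets, 1 was above a floor, at 34.3 and 22.0 units.

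Of the receptor chains, Cd3g alone was above a floor. Cd3g, a signalling chain of the T cell receptor, read 10.7 units in heterozygous and 62.2 units in null cells, at least 1.82-fold higher. The other chains did not share this size: Cd3e read 19.1 and 32.3 units and Cd3d 25.9 and 25.3 units, all below their floors. Lat, the adaptor phosphorylated by Zap70, read 13.9 and 47.3 units, at least 1.38-fold higher. Cd5, a receptor that dampens signalling, read 28.1 and 39.9 units, at least 1.16-fold higher. Cd2, an adhesion receptor, read 24.98 and 33.03 units. It passed the null floor by so little that its floored ratio of -0.05 bounds nothing.

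The helper coreceptor Cd4, the second CD8 chain Cd8b1 and the costimulatory receptor Cd28 were below both floors. Cd4 read 4.22 and 17.8 units, Cd8b1 10.2 and 15.3 units, and Cd28 11.0 and 16.2 units. Across the groups, 9 members were below both floors, of which 7 read higher in the null pool without a floor, against 45.8% of the 6300 genes in the same position. Signals this low do not measure a fold.

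NK and cytotoxic genes differed little between the pools. Gzma, granzyme A, read 126 units in heterozygous and 144 units in null cells, and Gzmb, granzyme B, 97.8 and 112 units. Both had a log2 ratio of 0.19, within the robust SDs of 0.30 and 0.39 among genes of similar signal. Nkg7, a protein of cytotoxic granules, read 54.5 and 58.8 units, a ratio of 0.11. Prf1, the pore-forming perforin, read 44.9 and 39.0 units, a ratio of -0.20 that turned above 0 on rescaling.

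Of the 3 NK receptors, only Klrd1 was measured, and it was lower in the null pool. Klrd1, which encodes CD94, read 42.2 units in heterozygous cells and 30.8 units in null cells, at least 1.30-fold lower. Klrk1, which encodes NKG2D, read 24.6 and 28.6 units. Ncr1, the NK receptor NKp46, read 3.89 and 12.4 units. The last 2 were below both floors. Over the 4 members of this group above both floors the ratios ran from -0.20 to 0.19. Whether this group differed from the B cell group could not be tested with 1 array each.

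Of the genes shared by leukocytes, Ptprc and Coro1a were higher in the null pool and Ikzf1 was slightly lower on the deposited scale, though not after rescaling to the hybridization controls. Ptprc, which encodes the leukocyte phosphatase CD45, read 188 and 344 units, 1.83-fold higher, and the robust SD among genes of similar signal was 0.28. Its other probe set was below both floors. Coro1a, an actin-binding protein of blood cells, read 158 and 310 units, 1.96-fold higher, and 90.9 and 151 units at a second measured probe set. Ikzf1, the transcription factor Ikaros, read 333 and 310 units, and 83.2 and 71.8 units at its other probe set, log2 ratios of -0.10 and -0.21.

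**Figure D2:**
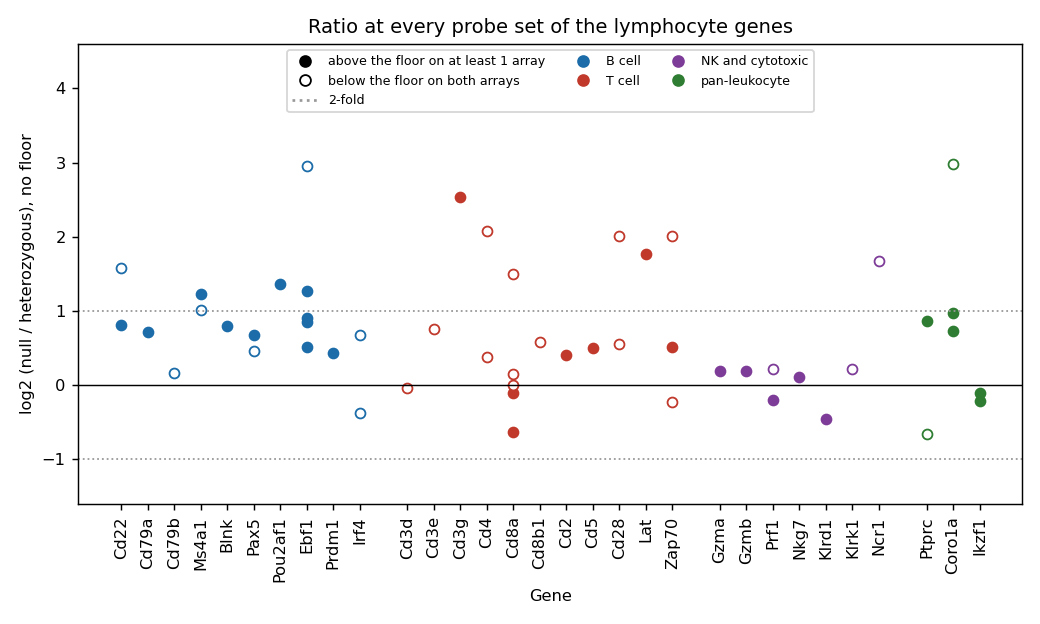
The log2 ratio of null over heterozygous signal, with no floor, at each of the 52 probe sets, 1 point each. Filled points were above the floor on at least 1 array (28) and open points on neither (24), and dotted lines mark 2-fold. Of all the points, 41 lie above 0, 19 of them open, where 49.8% of all probe sets with a gene symbol were higher. The largest ratios among the open points come from signals far under the floor.

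The ratios of the other 12 members above both floors can be set beside the CD45 ratio of 0.87, as differences on the log2 scale. Ebf1 differed from it by 0.40, Coro1a by 0.10, Cd22 by -0.06 and Blnk by -0.08. Zap70 differed by -0.36 and Prdm1 by -0.43. Gzma and Gzmb differed by -0.68 each, Nkg7 by -0.76, Cd8a and Ikzf1 by -0.97 each, and Prf1 by -1.07. Of the B cell members above both floors only Ebf1 thus lay above CD45. Among its probe sets above both floors, only the brightest did. Averaged over its measured probe sets, the Ebf1 ratio was 0.82, below that of CD45. The other B cell members above both floors, like the T cell and cytotoxic members above both floors, lay below CD45. For Cd22 and Blnk the gap was smaller than the robust SD of 0.21 between probe sets of 1 gene. Members above the floor in the null pool alone cannot be placed against CD45, because their ratios are at most lower bounds. In bulk RNA a change in the number of cells and a change in RNA per cell cannot be told apart.

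**Figure D3:**
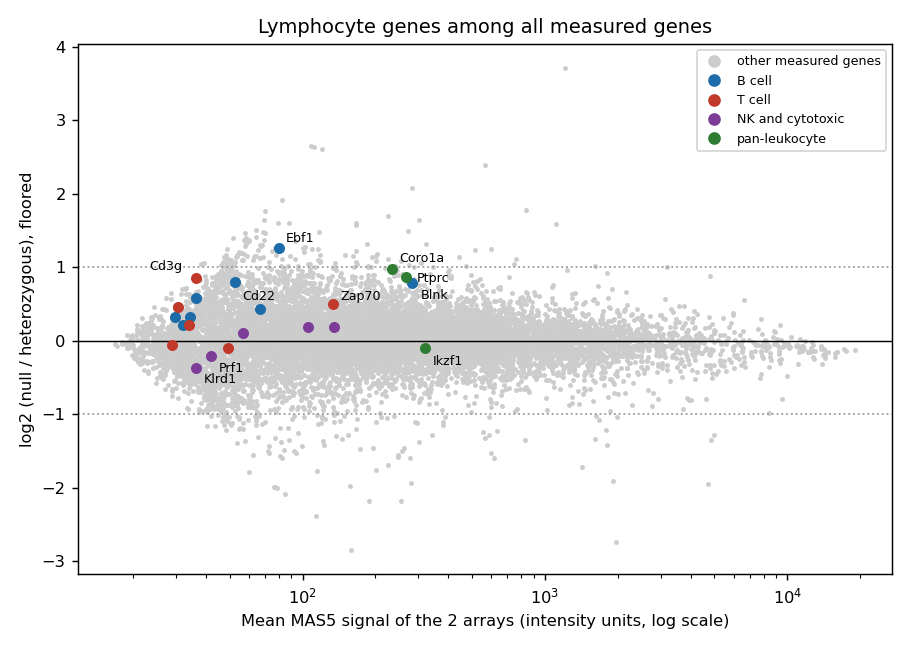
Floored log2 ratio against the mean signal of both arrays (log scale) for all 11893 measured genes (grey) and the 22 measured members (coloured by group). The members lie at low to moderate signal, where the ratios of all genes spread widely, and Ebf1 is the 1 member above the 2-fold line.

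Further lymphocyte genes, listed apart from the members, gave a less uniform picture. Of 25 other B and plasma cell genes with a probe set, 12 were higher in the null pool without a floor, close to the share of all genes, and the median over the 14 measured was 0.05. Mzb1, a chaperone of antibody-secreting cells, was the 1 gene of this list at least 2-fold apart, at 25.2 units in heterozygous and 73.8 units in null cells. The list also holds Xbp1 and Sdc1, which epithelium expresses, and Xbp1 read 8381 and 7287 units. Among immunoglobulin chains, 6 of 7 measured genes were at least 2-fold higher, where 1.12% of all measured genes were called. The mu heavy chain Ighm read 172 and 2252 units, and the J chain gene Jchain, whose product joins IgM and IgA into polymers, 108 and 458 units. The light chain genes Igkv8-30 and Igk read 181 and 951 units and 9.09 and 213 units. A second Igk probe set, above both floors, was lower in the null pool, at 61.9 and 54.7 units. Of the 7 genes, 3, Igk among them, were above the floor in the null pool alone. The Ighm probe sets above both floors had log2 ratios from 0.28 to 3.81. In contrast, the IgA chain Igha, at 257 and 197 units, was lower.

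Other T cell genes were higher without a floor in 15 of 25 cases, where 51.7% of all genes were higher. Their median was 0.17 over 11 measured, and none was 2-fold apart. The brightest of them were Gata3, which luminal cells also express, at 509 and 457 units, and the kinase Fyn, at 166 and 206 units. Other NK and cytotoxic genes were higher in 12 of 22 cases, with a median of -0.20 over 9 measured. Il18rap, a subunit of the interleukin 18 receptor, was 2.04-fold lower, at 136 and 66.4 units. Other genes shared by leukocytes were higher in 17 of 25 cases, with a median of 0.30 over 22 measured. Itgb2, the beta chain of leukocyte integrins, was 2.13-fold higher, at 75.6 and 161 units.

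Markers of other cell types were also mostly higher in the null pool, epithelial and adipocyte ones apart. Of all genes above both floors, 54.7% were higher. Macrophage and myeloid markers were higher in 14 of 18 measured genes, with a median of 0.31, and their summed signal was 14337 units in heterozygous and 16748 units in null cells. Fibroblast markers were higher in 8 of 8, with a median of 0.46 and sums of 8712 and 12635 units. Endothelial markers were higher in 8 of 8, with a median of 0.40 and sums of 1284 and 1891 units. Luminal and alveolar markers were higher in 3 of 9, with a median of -0.13 and sums of 75663 and 71192 units, and 2 of 6 myoepithelial markers were higher, with a median of -0.11. Both of these medians are smaller in size than the -0.22 of the hybridization controls, so their side of 0 depends on the scaling. Mast cell and granulocyte markers were higher in 4 of 4 measured genes, with a median of 0.36, and adipocyte markers in 0 of 3. No marker in these lists read 0. The summed signal of the B cell members was 498 and 847 units, that of the T cell members 310 and 494 units, and that of the NK and cytotoxic members 394 and 425.5 units. All sums here also count readings below the floor, which do not measure a fold. The 4 B cell members above both floors summed to 349 and 615 units, with Blnk alone at 207 and 359 units. Of the T cell members, only Zap70 and Cd8a were above both floors. What part the make-up of the pellets has in these differences was not tested.

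**Figure D4:**
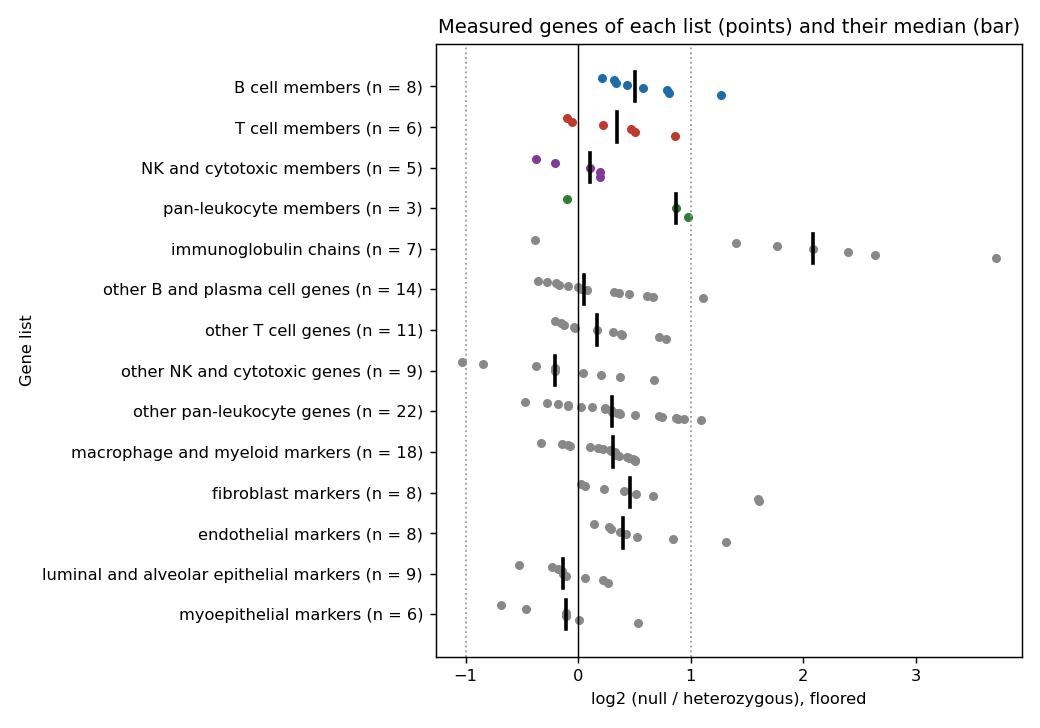
Floored log2 ratios of the measured genes of each list (1 point per gene, spread vertically for legibility) and their median (black bar); n is the number of measured genes and dotted lines mark 2-fold. The B cell and leukocyte-wide members lie mostly right of 0, as do fibroblast and endothelial markers, while epithelial lists centre just left of 0, by less than the shift that rescaling to hybridization controls makes.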

How the data were processed

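Each array's deposited values are linear intensities, 1 for each probe set. Per the submitters' processing notes they come from MAS5, run in version 1 of Affymetrix Expression Console. A build for the probe sets was not given in the sources used here. Both arrays had the same mean of 150.0 units after 2% of values were trimmed at each end, which is a global scaling and assumes equal total signal.

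From these intensities, log2 ratios were computed in Python 3.11.15 with pandas 2.3.3. Symbols came from the platform annotation, updated through Entrez IDs. Of the probe sets, 34958 had 1 symbol, 932 had several and 9160 non-control ones were not listed. The spread among genes of similar signal is a robust SD (from the median absolute deviation) in 20 equal bins of measured genes. Between probe sets of 1 gene, the robust SD was 0.21 per probe set over 4722 genes.

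The members and lists were chosen with earlier results of these data known. All members are named. From each other lymphocyte list, up to 4 genes at least 2-fold apart with the largest ratios are named, or the 2 brightest. Igha, Xbp1, Sdc1, Krt18 and Csn2 were named outside this rule, with values known. The steps were tested on simulated data, with changes of more than 2-fold planted only in genes brighter than most members. That test does not cover signals near the floor. Alternatives were the floor, the scaling, the choice of probe set, the filter and the fold.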

Additional observations from a re-analysis of the deposited data

How the results depend on the processing

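The median ratio of the members stayed above 0 under every alternative of floor, scaling, probe set and filter that was run. From 0.33 over the 22 measured members it became 0.79 over 5 with the floor at the 75th percentile, 0.56 over 31 with no floor and 0.55 when rescaled to the hybridization controls, where all genes had 0.25. For the B cell members, 0.51 became 0.76 with the floor at the 25th percentile, 0.79 (1 gene) at the 75th, 0.76 with no floor, 0.73 when rescaled and 0.80 with both arrays above the floor. For the T cell members, 0.34 became 0.10 (1 gene) at the 75th percentile, 0.56 with no floor and 0.56 when rescaled. With both arrays above the floor it was 0.20 (2 genes). Above the floor in the null pool alone were 8 of the 22 measured members, 4 of them B cell and 4 T cell members. The filter largely set their direction, so the medians of 0.33, 0.51 and 0.34, which include them, lean above 0. Rescaling also moved the NK and cytotoxic members from 0.11 to 0.33 and the leukocyte-wide members from 0.87 to 1.09. No NK or cytotoxic member passed the floor at the 75th percentile.

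The number of members at least 2-fold higher, 1 of 22, was the least stable value. With the 25th percentile as floor it was 5 of 31, where 4.14% of all genes were called. With no floor it was 7 of 31, where 9.21% were called. It was 0 of 5 with the 75th percentile as floor and 0 of 22 for the mean over measured probe sets. It was 6 of 22 when rescaled (2.85% of all genes) and 6 of 22 at 1.5-fold (5.83%). No member was 2-fold lower under any of these. Low signal over background and 1 array per genotype limit the precision throughout. No paired analysis was possible because each genotype is 1 array.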

Other observations

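Genes that draw lymphocytes into the gland or carry their antibodies were examined as a separate list, of which 8 had a signal above at least 1 floor. Ccl28, the mucosal chemokine that attracts IgA plasma cells, read 135 units in heterozygous and 48.2 units in null cells, 2.81-fold lower, and its second measured probe set read 49.0 and 25.4 units. Madcam1, the vascular address for gut-homing lymphocytes, read 146 and 77.7 units, 1.88-fold lower. Pigr, the epithelial receptor that carries polymeric IgA and IgM into milk, read 5041 and 4543 units, a log2 ratio of -0.15. Ltb, lymphotoxin beta, read 21.2 and 56.7 units, at least 1.66-fold higher. Cxcl13, a B cell chemokine, read 49.3 and 47.3 units at its brightest probe set and 18.7 and 56.3 units at the other. Vcam1, an adhesion receptor, had log2 ratios of 0.22, 0.04 and -0.81 at its 3 probe sets. Apart from Ccl28, these genes were named after their values were seen. The median of the list was -0.03.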
